A study of Mus musculus with 6 samples.

Results

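The TRAV9 family of T cell receptor (TCR) α chain variable genes was described in P2-binding CD4 T cells of Aire GW/+ Lyn-/- mice, a strain in which an eye autoimmunity, uveitis, arises in part of the animals. Members were selected by name: every productive TRA contig whose V gene was called TRAV9-, TRAV9D- or TRAV9N- followed by a number. This gave 288 cells of the 999 with a productive TRA, among 1089 cell barcodes, and 142 of 811 distinct clonotypes. The 4 genes TRAV9-1, TRAV9-2, TRAV9-4 and TRAV9N-4 held 269 of the 288 contigs, and the other 19 were called TRAV9D-1, TRAV9N-2 or TRAV9N-3. No cell held more than 1 TRAV9 chain. The family was chosen because it was known from these same data to be frequent, so its share is a description and carries no test.

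All animals were 9 wk old and carried 1 dominant negative Aire allele together with a deletion of Lyn. The groups were set by whether uveitis had developed, and the datasets also differed in pool size and depth (below). The uveitis data came from 2 separate experiments, so that condition, pool and experiment cannot be told apart. The study pooled 7 and 8 mice for its datasets with uveitis and 16 mice for the dataset without. Which uveitis pool was of which size is not given in the sources used here. The cells were lymph node CD4 T cells sorted for binding of a tetramer of P2, an epitope of the retinal protein IRBP, on I-Ab. Each pool counts as 1 sample, n = 2 with and n = 1 without uveitis, so the conditions were not tested against each other, and cells or clonotypes of a pool are not replicates of it. The range in parentheses after a share is its exact 95% Clopper-Pearson interval, which covers counting error only. The CD4 label was not checked against gene expression here. Of the TRAV9 cells, 281 had a productive TRB as well and 7 had none. Dataset 1 held 5302 unique molecular identifiers (UMIs, each standing for 1 captured RNA molecule) in 676 contigs of 212 barcodes, dataset 2 held 7439 in 800 contigs of 365 barcodes, and the dataset without uveitis held 21408 in 1648 contigs of 512 barcodes. A single barcode, 1 in all, occurred in both dataset 2 and the dataset without uveitis.

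A TCR α chain is made in the thymus by joining a V gene to a J gene. Bases are trimmed from and added to the joint, and the loop it encodes, CDR3, contacts the bound peptide, whereas CDR1 and CDR2 are fixed by the V gene. In the mouse, blocks of V genes were copied within the α locus, so that the same gene number can occur as a D or N copy. On chromosome 14 of GRCm38, plus strand, GENCODE places TRAV9D-1 at 52792316 to 52792777, TRAV9N-2 at 53203122 to 53203554, TRAV9N-3 at 53231433 to 53232102, TRAV9N-4 at 53294341 to 53295030, TRAV9-1 at 53488045 to 53488567, TRAV9-2 at 53590857 to 53591514 and TRAV9-4 at 53676141 to 53676630, each annotated as a TCR V gene. Their most frequent J partner here, TRAJ31, lies downstream at 54187895 to 54187951. The V genes end, from the Cys codon that opens CDR3, in the bases below, which show how much of a CDR3 the V gene itself can give.

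TRAV9-1, TRAV9-4 and TRAV9D-1: tgtgctgtgagcg
TRAV9-2: tgtgttttgagcg
TRAV9N-2: tgtgttctgagcg
TRAV9N-3: tgtgctgtgagca
TRAV9N-4: tgtgctctgagca

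TRAV9-1, TRAV9-4 and TRAV9D-1 thus open CDR3 with the same 13 bases and are told apart only by sequence upstream of it. The CDR3α sequences on which the results turn are given next, 5′ to 3′ in lower case. Capitals mark bases that neither the end of the named V gene nor the J gene explains, and because a chance match is counted as germline, these are a minimum of the added bases. The TRAJ31 chains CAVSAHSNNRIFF and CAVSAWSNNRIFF lead in cells, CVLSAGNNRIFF and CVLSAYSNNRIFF are TRAV9-2 chains found with and without uveitis, and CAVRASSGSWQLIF is a TRAJ22 chain written by 2 different base sequences.

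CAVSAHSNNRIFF, TRAV9-4 and TRAJ31: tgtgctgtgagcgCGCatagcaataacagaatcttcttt
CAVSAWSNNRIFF, TRAV9-1, TRAV9-4 or TRAV9D-1 and TRAJ31: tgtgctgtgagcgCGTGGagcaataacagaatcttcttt
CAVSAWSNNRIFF, TRAV9-4 and TRAJ31: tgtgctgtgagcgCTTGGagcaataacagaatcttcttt
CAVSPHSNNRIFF, TRAV9-4 (TRAV9-2 in 1 cell) and TRAJ31: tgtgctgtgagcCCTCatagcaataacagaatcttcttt
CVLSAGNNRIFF, TRAV9-2 and TRAJ31, uveitis dataset 1: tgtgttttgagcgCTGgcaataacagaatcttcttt
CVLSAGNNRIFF, TRAV9-2 and TRAJ31, without uveitis: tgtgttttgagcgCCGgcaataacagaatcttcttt
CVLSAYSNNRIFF, TRAV9-2 and TRAJ31: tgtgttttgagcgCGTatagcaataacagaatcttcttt
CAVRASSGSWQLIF, TRAV9-1 and TRAJ22: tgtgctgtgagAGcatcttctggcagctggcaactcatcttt
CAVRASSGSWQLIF, TRAV9-1 or TRAV9D-1 and TRAJ22: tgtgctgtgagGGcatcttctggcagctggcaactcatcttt

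TRAV9 chains were carried by 49 of 186 cells with a TRA in uveitis dataset 1, or 26.3% (20.2 to 33.3%), by 154 of 330 in dataset 2, or 46.7% (41.2 to 52.2%), and by 85 of 483 without uveitis, or 17.6% (14.3 to 21.3%). The mean with uveitis was 36.5% ± 14.4 (SD, n = 2 pools). Counted by distinct clonotypes, where a clonotype has the same V, J and CDR3 bases in both chains, the shares were 40 of 164, or 24.4% (18.0 to 31.7%), 48 of 161, or 29.8% (22.9 to 37.5%), and 54 of 486, or 11.1% (8.46 to 14.2%). The mean with uveitis was then 27.1% ± 3.83 (SD, n = 2 pools). By clonotypes, the intervals of the uveitis datasets overlapped each other and neither overlapped that of the dataset without uveitis. By cells, datasets 1 and 2 did not overlap, and dataset 1 overlapped the dataset without uveitis. TRAV9 was the family with the most cells in all 3 libraries, and by clonotypes it ranked 1 with uveitis and 3 without, among 13 families with at least 10 cells. When clonotypes with the same TRAV9 α but different β chains were counted once, the shares of distinct α chains were 21.9%, 25% and 10.7% in the same order.

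The individual genes did not share these shares evenly. TRAV9-1 was carried by 16 cells (8.60%) in the first uveitis dataset, 69 (20.9%) in the second and 15 (3.11%) in animals free of uveitis. These made 13, 23 and 13 distinct clonotypes. TRAV9-4 was carried by 17 (9.14%), 66 (20%) and 12 cells (2.48%), in 13, 9 and 10 clonotypes. For both genes the interval by cells in dataset 2, 16.6 to 25.7% and 15.8 to 24.7%, lay above those of the other libraries. By clonotypes it did not lie above dataset 1: TRAV9-1 made up 7.93% (4.29 to 13.2%) of clonotypes in dataset 1 and 14.3% (9.28 to 20.7%) in dataset 2, and TRAV9-4 made up 7.93% (4.29 to 13.2%) and 5.59% (2.59 to 10.3%). Without uveitis TRAV9-1 made up 2.67% (1.43 to 4.53%) and TRAV9-4 2.06% (0.991 to 3.75%) of clonotypes. The interval of dataset 2 lay above this for TRAV9-1 and overlapped it for TRAV9-4. That of dataset 1 overlapped it for TRAV9-1 and lay above it for TRAV9-4. Of the 66 TRAV9-4 cells of dataset 2, 37 and 16 were of 1 clonotype each. TRAV9-2 was carried by 8 (4.30%), 10 (3.03%) and 22 cells (4.55%), in 6, 8 and 13 clonotypes, and its intervals in the 3 libraries overlapped. TRAV9N-4 ran the other way: 2 cells (1.08%), 0 of 330 cells, and 32 cells (6.63%), in 2, 0 and 14 clonotypes. For the 0 of 330, a share worth 3 counts would be 0.909%, which is a one-sided limit, and the interval used elsewhere here, with both sides, reaches 1.11%. Its interval without uveitis, 4.58 to 9.22%, lay above those of both uveitis datasets (0.130 to 3.83% and 0 to 1.11%), although 18 of the 32 cells were of 1 clonotype. By clonotypes, 2.88% (1.58 to 4.79%) of all clonotypes without uveitis used TRAV9N-4, which overlapped both uveitis datasets (0.148 to 4.34% and 0 to 2.27%). TRAV9D-1 was carried by 4, 8 and 1 cells in 4, 7 and 1 clonotypes, TRAV9N-2 by 1, 0 and 1 cells, and TRAV9N-3 by 1, 1 and 2 cells, each of these N copies in as many clonotypes as cells.

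**Figure D1:**
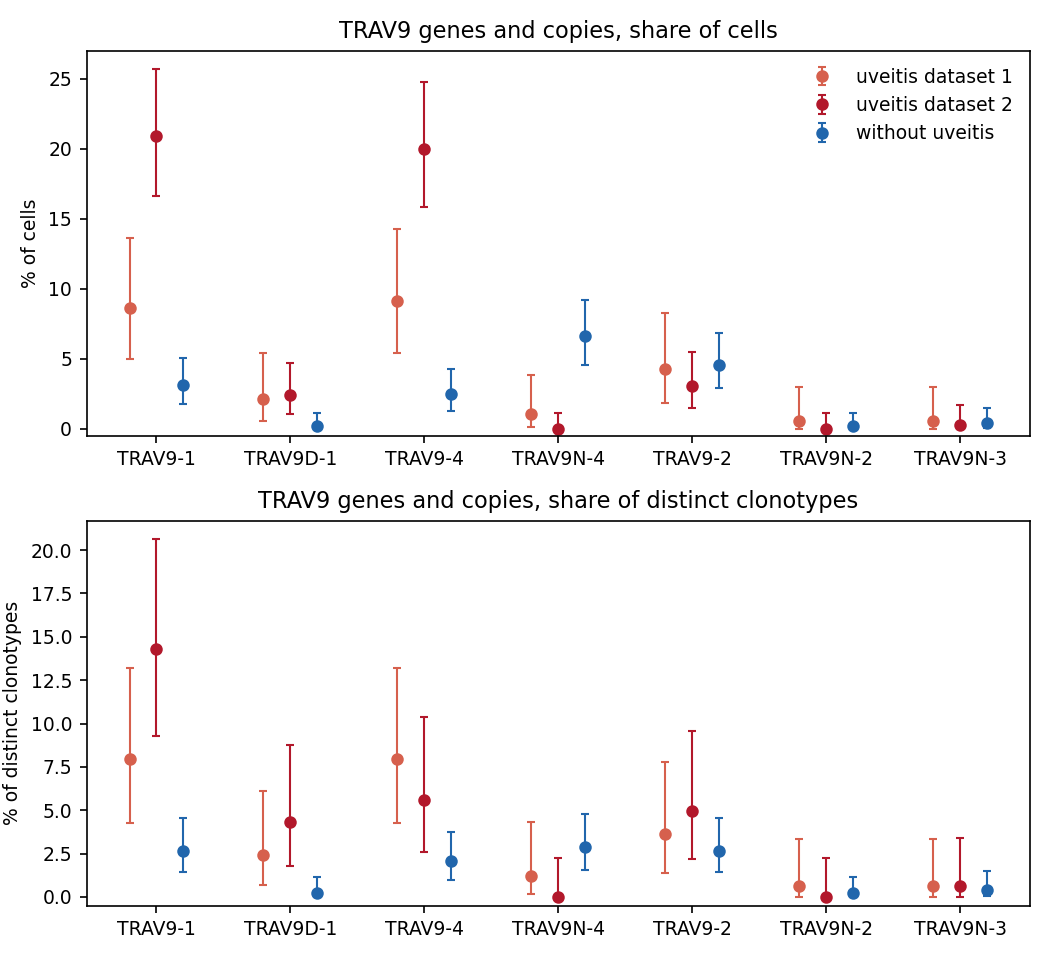
Share of cells (top) and of distinct clonotypes (bottom) with a productive TRA, in percent, that used each TRAV9 gene or copy in the 3 libraries. Points are shares and bars 95% Clopper-Pearson intervals. TRAV9-1 and TRAV9-4 stand highest in uveitis dataset 2 by cells (20.9% and 20%), and TRAV9N-4 is highest without uveitis (6.63%).

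The V genes that open CDR3 with the same 13 bases, TRAV9-1, TRAV9-4 and TRAV9D-1, made up 75% and 81.3% of TRAV9 clonotypes with uveitis and 44.4% without. In uveitis dataset 1, 4 of 49 TRAV9 contigs opened with 3 codons of another TRAV9 copy than the one named, on 1, 1, 4 and 9 UMIs. All 4 had the CDR3 bases of another contig of that library under another TRAV9 name. In the other libraries 0 of 154 and 0 of 85 contigs did so.

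TRAJ31 was the J gene joined most often to TRAV9 in both uveitis datasets, and without uveitis it was level with TRAJ23 by clonotypes and behind TRAJ12 by cells. By distinct clonotypes it was used by 11 of 40 in uveitis dataset 1, or 27.5% (14.6 to 43.9%), by 15 of 48 in dataset 2, or 31.3% (18.7 to 46.3%), and by 6 of 54 without uveitis, or 11.1% (4.19 to 22.6%). Among clonotypes of all other TRAV genes the shares were 4.84% (1.80 to 10.2%), 6.19% (2.53 to 12.3%) and 5.32% (3.40 to 7.88%). The intervals of TRAV9 and of the other genes did not overlap in either uveitis dataset and overlapped without uveitis. Those of the uveitis datasets also overlapped the TRAV9 interval without uveitis. Counted once per distinct α chain, the TRAJ31 share of TRAV9 was 26.7% (12.3 to 45.9%), 20% (8.44 to 36.9%) and 11.8% (4.44 to 23.9%), and that of the other genes 4.67% (1.53 to 10.6%), 4.76% (1.56 to 10.8%) and 5.42% (3.47 to 8.03%). On this count the intervals of dataset 2 overlapped. Counted once per distinct CDR3α amino acid sequence, the intervals of TRAV9 and of the other genes overlapped in every library. In dataset 1 the TRAJ31 share was then 24.1% (10.3 to 43.5%) for TRAV9 and 4.67% (1.53 to 10.6%) for the other genes. By cells, TRAJ31 was used by 34.7% of TRAV9 cells in dataset 1, 68.2% in dataset 2 and 16.5% without uveitis, where TRAJ12 was used by 25.9%.

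**Figure D2:**
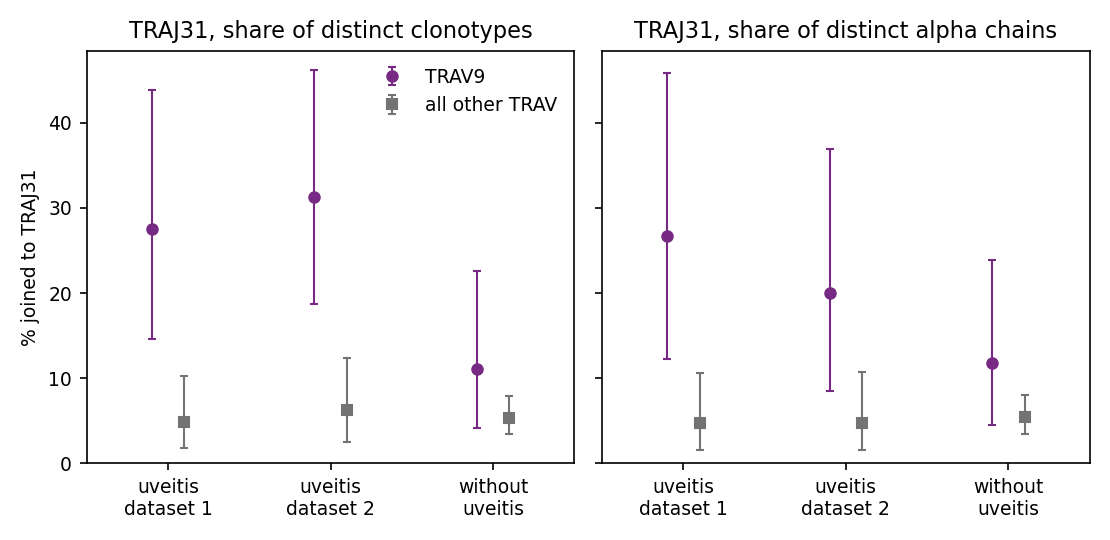
Share of chains joined to TRAJ31, in percent of distinct clonotypes (left) and of distinct α chains (right), for TRAV9 and for all other TRAV genes of each library, with 95% Clopper-Pearson intervals. The TRAV9 points stand above the others in all 3 libraries, from 11.1% to 31.3% of clonotypes against 4.84% to 6.19%.

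Within the family, TRAV9-4 was joined to TRAJ31 in 6 of 13 clonotypes of dataset 1, 6 of 9 of dataset 2 and 1 of 10 without uveitis. TRAV9-1 was joined to it in 2 of 13, 5 of 23 and 2 of 13, and TRAV9-2 in 2 of 6, 2 of 8 and 2 of 13. The TRAV9-4 counts with uveitis rest on repeated chains. The 6 of dataset 2 were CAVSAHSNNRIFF and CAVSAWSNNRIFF, and the 6 of dataset 1 were these and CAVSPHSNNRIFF. Each was counted again for every β chain, and counts per distinct α chain were not made for single genes. TRAV12 and TRAV7, the other families set beside TRAV9, used TRAJ31 in 2 of 23, 3 of 21 and 4 of 48 clonotypes and in 1 of 13, 1 of 15 and 5 of 74. Many TRAV9 joints used other J genes: 16, 18 and 27 different TRAJ genes were found, of which 7, 8 and 16 occurred in at least 2 clonotypes. After TRAJ31, dataset 1 used TRAJ34 in 7 clonotypes, or 17.5% (7.34 to 32.8%), and TRAJ12 in 3, or 7.50%, level with TRAJ33 and TRAJ56. Dataset 2 used TRAJ22 in 6, or 12.5% (4.73 to 25.2%), and TRAJ43 in 4, or 8.33%. Without uveitis TRAJ23 was as frequent as TRAJ31, with 6 clonotypes, followed by TRAJ12 in 4, or 7.41%. TRAJ34 was used by 2.42% (0.502 to 6.91%) of the other clonotypes of dataset 1, an interval below that of TRAV9 there. The 7 TRAV9 clonotypes held the α chain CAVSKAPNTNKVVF 3 times, once per β chain. This comparison was not made per distinct α chain.

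The same CDR3α was met again for part of the chains. Of 102 distinct TRAV9 CDR3α amino acid sequences, 16, or 15.7% (9.24 to 24.2%), were found in more than 1 library or with more than 1 β chain in a library, 5 of them with TRAJ31. Here β chains were told apart by their CDR3 bases. By the same rule 35 of 619 CDR3α of all other TRAV genes recurred, or 5.65% (3.97 to 7.78%). These shares were not adjusted for the number of cells per sequence. TRAV9 had fewer clonotypes per 100 cells, with 81.6, 31.2 and 63.5 against 87.9, 60.8 and 106 for the others. None of the 16 was found with a V gene outside TRAV9. In more than 1 library, 8 were found: 5 in both uveitis datasets, 2 in dataset 1 and without uveitis, and 3 in dataset 2 and without uveitis, with 1 counted in each. That one was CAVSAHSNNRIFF, written by the same bases in all 3 libraries and named TRAV9-4 in every cell. It was carried by 3 cells in dataset 1, 37 in dataset 2 and 3 without uveitis, and no β chain was shared: TRBV5 with 2 different CDR3β in dataset 1 (and 1 cell with no TRB), TRBV31 in all 37 cells of dataset 2, and TRBV4 in all 3 cells without uveitis.

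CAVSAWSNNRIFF was carried by 2 cells of dataset 1, 63 of dataset 2 and none of the 483 without uveitis (0 of 483, where 3 counts would make 0.621%). In dataset 2 it was met with 10 different β chains of 5 TRBV genes, the largest in 34 cells (TRBV12-2 with TRBJ2-3), 16 cells (TRBV19 with TRBJ1-3) and 5 cells (TRBV4 with TRBJ2-2). It carried the name TRAV9-1 with 3 of these, TRAV9-4 with 5 and TRAV9D-1 with 2. Of the 10 β chains, 5 were also found in cells with another α chain and without this one, and 4 of the 63 cells had a further TRA. With at least 2 UMIs per contig 9 β chains remained, and in barcodes with 1 TRA and 1 TRB 6 did, in 35 cells. Every TRAV9 cell of dataset 2 had a TRB, so most cells lost to the latter filter held more than 1 productive TRB. For those cells the β chain counted is the one with the most UMIs. Droplets with more than 1 cell and free RNA can give a barcode a chain of another cell, and their part in the number of β chains was not tested. In dataset 1 its β chain was TRBV26 with TRBJ1-6 in both cells.

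Other recurring chains were in fewer cells. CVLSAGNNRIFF, on TRAV9-2, was carried by 3 cells in dataset 1 and 7 without uveitis. Its base sequences differed between these libraries (above), and both paired with TRBV20 and TRBJ2-2 but with different CDR3β. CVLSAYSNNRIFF was carried by 2 cells of dataset 2, with TRBV2, and by 1 cell without uveitis, with no TRB, on the same bases. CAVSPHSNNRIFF was found in 6 cells of dataset 1 on 2 base sequences and with 3 β chains, and 4 of these cells had TRBV2 with TRBJ2-7. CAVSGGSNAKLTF, a TRAV9D-1 chain with TRAJ42 and no added base, was found in 1 cell of each uveitis dataset, on different bases. The others in more than 1 library were the TRAJ22 chains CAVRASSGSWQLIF and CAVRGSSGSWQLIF and a chain of TRAV9-1 with TRAJ32, in 5 cells of dataset 2 and 1 without uveitis, whose base sequences differed (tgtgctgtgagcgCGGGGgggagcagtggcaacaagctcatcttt with uveitis and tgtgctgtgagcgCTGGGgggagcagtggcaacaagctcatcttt without). Within dataset 1, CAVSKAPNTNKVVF was found with 3 β chains, all of TRBV13-2, in 3 cells, and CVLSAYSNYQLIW with 2 β chains and 1 cell with no TRB. A chain of TRAV9-4 with TRAJ56 was found there in 2 cells with 2 β chains (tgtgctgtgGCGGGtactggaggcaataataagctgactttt). Within dataset 2, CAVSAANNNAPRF was found with 3 and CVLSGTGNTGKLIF with 2 β base sequences, in 4 and 2 cells. For each of the 2 these encoded 1 CDR3β, so that by residues both would leave the 16. A TRAV9-1 chain with TRAJ52 was found there with 2 β chains in 2 cells (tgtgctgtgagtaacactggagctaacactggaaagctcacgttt). Without uveitis a TRAV9N-4 chain with TRAJ12 was found with 3 β chains, all of TRBV31, in 21 of its 22 cells, the other having no TRB: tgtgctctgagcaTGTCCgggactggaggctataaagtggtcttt. Some of these calls of more than 1 β rest on single cells: with at least 2 UMIs per contig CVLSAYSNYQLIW and the TRAJ52 chain were left with 1 β, and in barcodes with 1 TRA and 1 TRB so was the TRAJ56 chain, so that each would leave the 16. Of their 2 β chains, 1 each was also found with another α chain, as were 2 of the 3 of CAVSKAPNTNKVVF and of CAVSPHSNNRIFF.

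The residue at position 6 of CDR3α, counted from the opening Cys as 1, varied between libraries in TRAV9 chains. This was looked at after the sequences had been seen. Trp was at this position in 3 of 40 TRAV9 clonotypes of dataset 1, 14 of 48 of dataset 2 and 1 of 54 without uveitis, against 1 of 124, 0 of 113 and 6 of 432 of the other clonotypes. Counted once per distinct CDR3α, it was in 3 of 29, 5 of 31 and 1 of 51 for TRAV9, and in 1 of 107, 0 of 102 and 6 of 420 for the others. Among TRAV9 clonotypes with TRAJ31, position 6 was His in 7 of 11 in dataset 1 and Trp in 11 of 15 in dataset 2. Without uveitis, His, Trp, Tyr, Gly and Asn were each found in 1 of 6. These counts rest on a few repeated chains: per distinct CDR3α with TRAJ31, His was in 3 of 7, 1 of 6 and 1 of 6, and Trp in 1 of 7, 2 of 6 and 1 of 6, with overlapping intervals. In the sequences above, Trp at this position is encoded within the added bases, and the His codon is completed by TRAJ31.

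TRAJ22 gave a second set of like receptors, also noticed after the sequences had been seen. All 8 TRAV9 clonotypes with TRAJ22 in the uveitis datasets, 2 in dataset 1 and 6 in dataset 2, were named TRAV9-1 or TRAV9D-1, opened with CAVR and paired with TRBJ2-5 and a CDR3β that ended in NQDTQYF. This ending was not limited to them. Over all J genes it was in 5 of 37, 6 of 48 and 1 of 50 TRAV9 clonotypes with a TRB. In the other clonotypes it was in 12 of 117, 3 of 107 and 14 of 423. Clonotypes of other TRAV genes with TRAJ22 had TRBJ2-5 in 0 of 7, 0 of 5 and 2 of 11. TRAV9 clonotypes with other J genes had it in 7 of 35, 3 of 42 and 4 of 49. The 1 TRAV9 clonotype with TRAJ22 and a TRB without uveitis, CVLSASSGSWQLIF, paired with TRBJ2-3. The receptor of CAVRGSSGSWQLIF with TRBV5 and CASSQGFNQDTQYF was found in 2 cells of each uveitis dataset, with the same β bases (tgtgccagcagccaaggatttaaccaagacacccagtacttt) and different α bases (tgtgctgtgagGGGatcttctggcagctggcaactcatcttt in dataset 1 and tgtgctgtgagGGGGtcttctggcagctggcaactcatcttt in dataset 2). In dataset 1 this β chain was also found in a cell with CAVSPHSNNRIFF. Of the 3 cells with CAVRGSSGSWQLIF in dataset 2, 2 had a further TRA.

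In dataset 2, 3 of 43 TRAV9 receptors, or 6.98% (1.46 to 19.1%), had the same residues in both CDR3 loops but more than 1 pair of base sequences. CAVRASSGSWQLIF with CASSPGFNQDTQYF (TRBV26) was made by 3 pairs, from 2 α and 3 β base sequences, in 6 cells. The receptor of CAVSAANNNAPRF with TRBV13-2 and TRBJ2-7 was also made by 3 pairs, in 4 cells. That of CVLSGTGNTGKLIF with TRBV3 and TRBJ2-7 was made by 2 pairs, in 2 cells. The β chains paired with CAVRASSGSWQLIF in dataset 2, which encode the same residues, read:

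TRBV26, 3 cells: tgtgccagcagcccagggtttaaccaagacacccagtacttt
TRBV26, 2 cells: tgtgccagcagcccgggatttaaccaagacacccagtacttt
TRBV26, 1 cell: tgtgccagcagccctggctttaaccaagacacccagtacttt

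No TRAV9 receptor was made in more than 1 way in dataset 1 (0 of 36) or without uveitis (0 of 50). Among receptors of all other TRAV genes, 0 of 117, 0 of 107 and 2 of 421 were. The intervals of TRAV9 and the others overlapped in dataset 2 (0 to 3.39% for the others).

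CDR3α of TRAV9 had a median length of 13 residues (interval of the median 13 to 13) in dataset 1 and of 14 residues (13 to 14) both in dataset 2 and in the dataset without uveitis, against 13.5, 13 and 14 in the other clonotypes. A length of exactly 13 was found in 22 of 40 TRAV9 clonotypes of dataset 1, or 55.0% (38.5 to 70.7%), 22 of 48 of dataset 2, or 45.8% (31.4 to 60.8%), and 17 of 54 without uveitis, or 31.5% (19.5 to 45.6%). In the other clonotypes the shares were 33.1% (24.9 to 42.1%), 38.1% (29.1 to 47.7%) and 27.3% (23.2 to 31.8%), and the intervals overlapped in all 3 libraries. Within the family, TRAV9-4 held 9 of 13 and 7 of 9 clonotypes at 13 residues with uveitis and 2 of 10 without. With uveitis these counts held the TRAJ31 chains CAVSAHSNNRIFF and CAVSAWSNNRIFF, of 13 residues, once for each β chain. The range was 12 to 16 residues apart from 2 clonotypes called at 5 residues, both with TRAJ44, 1 in dataset 1 and 1 without uveitis. The latter, CVLST on TRAV9-2, was in 4 cells. It lacks the closing Phe or Trp of the other CDR3α sequences named here. Whether these 2 calls give the full loop was not tested. Added bases had a median of 3, 4 and 3 in TRAV9 and 3, 3 and 3 in the others. Joints with none were 2 of 40, 4 of 48 and 4 of 54 in TRAV9 and 15 of 124, 5 of 113 and 75 of 432 in the others, shares of 5%, 8.33% and 7.41% against 12.1%, 4.42% and 17.4%, with overlapping intervals in each library.

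**Figure D3:**
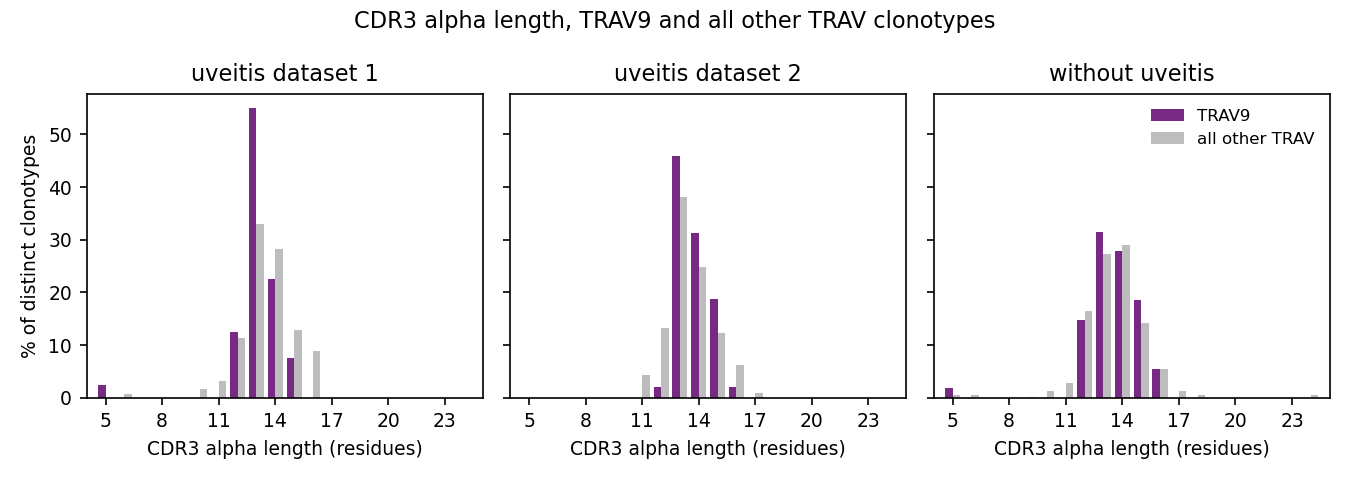
Length of CDR3α in residues (horizontal) against the percent of distinct clonotypes (vertical), for TRAV9 and for all other TRAV genes of each library. The bar at 13 residues is the tallest for TRAV9 in all 3 libraries, at 55.0%, 45.8% and 31.5%.

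The β chains paired with TRAV9 were diverse, with 13, 13 and 15 TRBV genes in 37, 48 and 50 clonotypes with a TRB. In dataset 1 TRBV3 and TRBV5 each paired in 7 clonotypes, or 18.9% (7.96 to 35.2%), and TRBV13-2 in 6, or 16.2%. In dataset 2 TRBV4 led with 12, or 25% (13.6 to 39.6%), followed by TRBV3 with 8, or 16.7%, and TRBV19 with 5, or 10.4%, level with TRBV31. Without uveitis TRBV31 and TRBV5 each paired in 6, or 12% (4.53 to 24.3%), and TRBV13-2 in 5, or 10.0%, level with TRBV19 and TRBV3. TRBV4 in dataset 2 paired with 6 of 107 other clonotypes, or 5.61% (2.09 to 11.8%), an interval below that of TRAV9. This was so by clonotypes alone: by cells TRBV4 was the partner of 17 of 154 TRAV9 cells (11.0%) and 21 of 180 other cells (11.7%) there. The 12 TRAV9 clonotypes also held the α chain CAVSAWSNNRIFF several times and the TRAV9-1 chain with TRAJ52 2 times, once per β chain. The TRBV4 comparison was not made per distinct α chain. In the other libraries TRBV4 paired with 2 of 37 and 4 of 50 TRAV9 clonotypes, and the intervals overlapped those of the other clonotypes. For TRBV5 in dataset 1 the other clonotypes stood at 5.13% (1.90 to 10.8%), which overlapped. By cells, TRBV31 was the partner of 45 of 154 TRAV9 cells in dataset 2 and 24 of 81 without uveitis, of which 37 and 18 were of 1 clonotype in each.

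Of the TRBJ genes, TRBJ2-5 paired with TRAV9 in 9 of 37 clonotypes of dataset 1, or 24.3% (11.8 to 41.2%), TRBJ2-7 in 8 and TRBJ1-1 in 4, level with TRBJ2-3. In dataset 2 TRBJ2-7 led with 15 of 48, or 31.3% (18.7 to 46.3%), followed by TRBJ2-5 with 9 and TRBJ2-2 with 8. Without uveitis TRBJ2-7 led with 12 of 50, or 24.0% (13.1 to 38.2%), followed by TRBJ1-4 with 6 and TRBJ2-1 with 5, level with TRBJ2-4. TRBJ2-7 was used by 23.1%, 16.8% and 18.0% of the other clonotypes with a TRB, within or overlapping the TRAV9 intervals.

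**Figure D4:**
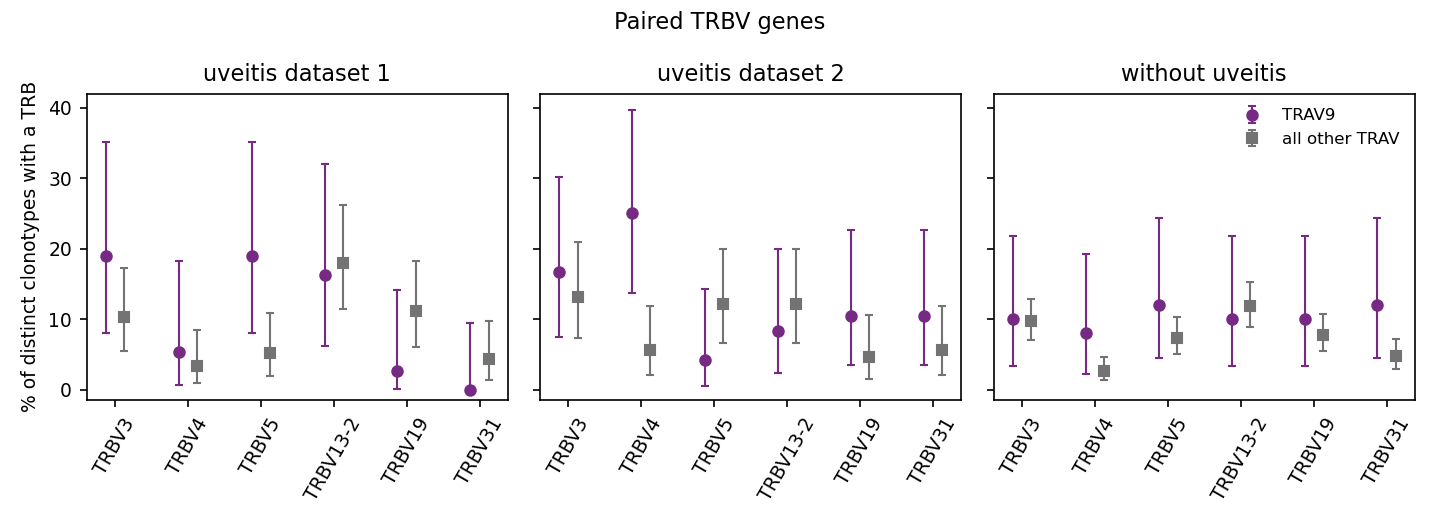
Percent of distinct clonotypes with a TRB that used each of 6 TRBV genes, for clonotypes with TRAV9 and with all other TRAV genes in the 3 libraries, with 95% Clopper-Pearson intervals. TRBV4 in uveitis dataset 2 stands at 25% with TRAV9 and at 5.61% with the others by clonotypes (11.0% and 11.7% by cells, not plotted). Some TRAV9 α chains are counted there once per β chain. The other pairs of intervals overlap.

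Expanded clonotypes, those in more than 1 cell, held 15 of 49 TRAV9 cells in dataset 1, or 30.6% (18.3 to 45.4%), 121 of 154 in dataset 2, or 78.6% (71.2 to 84.8%), and 38 of 85 without uveitis, or 44.7% (33.9 to 55.9%). Among cells with other TRAV chains the shares were 27.0% (19.8 to 35.1%), 57.0% (49.5 to 64.2%) and 11.7% (8.78 to 15.3%). The intervals overlapped in dataset 1 only. TRAV12 cells alone stood at 55.8% (39.9 to 70.9%), 78.0% (65.3 to 87.7%) and 27.6% (16.7 to 40.9%), which overlapped TRAV9 in each library, with the TRAV12 value the higher in dataset 1. Without the largest TRAV9 clonotype the share without uveitis was 29.9% (19.3 to 42.3%), and that of the others without their largest was 10.2% (7.42 to 13.6%). In dataset 2 these values were 71.8% (62.7 to 79.7%) and 52.9% (45.1 to 60.6%). Counted by clonotypes, 6 of 40, 15 of 48 and 7 of 54 TRAV9 clonotypes were expanded, or 15%, 31.3% and 13%, against 7.26%, 25.7% and 4.86% of the others, with overlapping intervals in each library. The 3 largest TRAV9 clonotypes held 9 of 49, 87 of 154 and 29 of 85 TRAV9 cells. In turn, among the cells of expanded clonotypes TRAV9 was carried by 28.3% (dataset 1), 53.3% (dataset 2) and 44.2% (no uveitis), and by 24.8%, 30.1% and 11.8% of cells with single-cell clonotypes only.

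The TRAV9 clonotypes in at least 3 cells were 13. In dataset 1 they were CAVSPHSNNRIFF with TRBV2 in 4 cells and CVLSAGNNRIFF with TRBV20 in 3. In dataset 2, 4 of the 7 used TRAJ31: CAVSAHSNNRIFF with TRBV31 in 37 cells, or 11.2% (8.02 to 15.1%) of the library, and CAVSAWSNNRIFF in 34, or 10.3% (7.24 to 14.1%), in 16 and in 5 cells with the TRBV12-2, TRBV19 and TRBV4 chains named above. The other 3 were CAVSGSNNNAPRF (TRAV9-4 with TRAJ43, and TRBV3) in 6 cells, the TRAV9-1 chain with TRAJ32 and TRBV31 in 4, and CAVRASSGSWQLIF with TRBV26 in 3. Without uveitis the largest was the TRAV9N-4 chain with TRAJ12 shown above, with TRBV31 and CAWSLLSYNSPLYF, in 18 cells, or 3.73% (2.22 to 5.83%). It was followed by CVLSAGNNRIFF with TRBV20 in 7, CVLST with TRBV12-1 in 4 and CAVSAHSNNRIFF with TRBV4 in 3. TRAJ31 was thus in 2 of 2, 4 of 7 and 2 of 4 of these clonotypes.

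**Figure D5:**
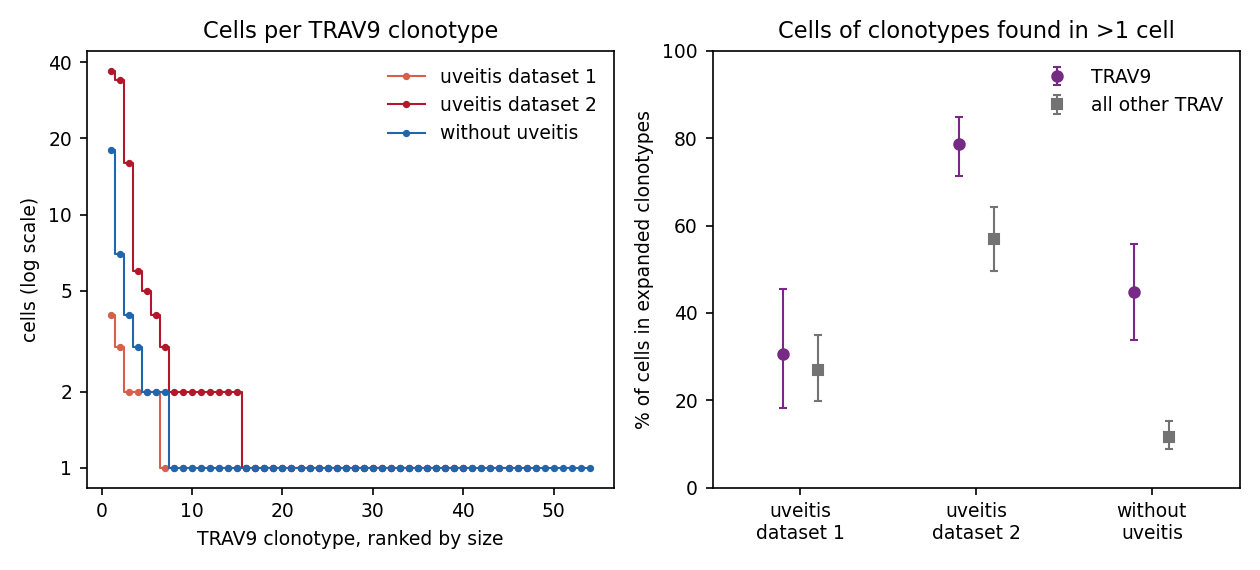
Left, cells per TRAV9 clonotype (log scale) against its rank by size in each library. Right, percent of cells that belonged to clonotypes in more than 1 cell, for TRAV9 and all other TRAV genes, with 95% Clopper-Pearson intervals. The largest TRAV9 clonotypes held 4, 37 and 18 cells, and the TRAV9 share is above that of the others in dataset 2 and without uveitis.

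The TRAV9 contigs rested on a median of 5 UMIs (interval of the median 4 to 7) in dataset 1, of 4 UMIs (3 to 5) in dataset 2 and of 5 UMIs (4 to 5) in the dataset without uveitis, with a range of 1 to 25, 1 to 20 and 1 to 25. The other TRA contigs rested on 5 (4 to 5), 5 (4 to 6) and 7 (7 to 8). Without uveitis the TRAV9 contigs thus had fewer UMIs than the others, and these intervals did not overlap. Within that library the median was 3 in expanded and 5 in single-cell TRAV9 clonotypes, and 7 and 8 in the others. A single UMI stood behind 10.2%, 10.4% and 5.88% of TRAV9 contigs and 7.69%, 5.42% and 2.94% of the others. TRAV9-4 in dataset 2 had a median of 3 UMIs with 11 of 66 contigs at 1, and TRAV9-1 there 5 with 4 of 69 at 1. In TRAV9 cells, a further productive TRA was found in 4 of 49, 10 of 154 and 11 of 85, and in those the TRAV9 chain had the most UMIs in 0, 3 and 4 cells. Cells without TRAV9 held more than 1 TRA in 15 of 137, 17 of 176 and 67 of 398.

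Across the 3 libraries, the V families whose profile of cell shares was nearest to that of TRAV9 were TRAV12, TRAV8 and TRAV4. Likeness was the summed absolute difference between families in the parts that the 3 libraries made of each family's shares, which was 0.355, 0.405 and 0.442 on a scale where 0 is the same profile. TRAV12 was carried by 23.1%, 17.9% and 12% of cells. TRAV7, with 8.06%, 9.39% and 15.9%, stood at 0.566. With 3 libraries this order is a description.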

How the data were processed

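TRA and TRB contigs of 3 single-cell TCR libraries were analyzed, and the 3 mRNA libraries of the series were not used here. Per the study's methods, the authors made them with a 10x Genomics Chromium 5′ kit (version 1.1) and ran Cell Ranger version 3 with a VDJ reference of GRCm38 from Ensembl. The deposited values are counts of reads and UMIs per contig, not normalized, and the deposited contig length in bases was not used. Cells with a productive TRA (V, J and CDR3 given) were counted, with all TRA contigs of a barcode. The partner β was the productive TRB with the most UMIs. Clonotypes were the V, J and CDR3 bases of both chains, a TRA without TRB counting as a clonotype of its own. No step removed droplets with more than 1 cell. Joints were placed against GENCODE M21 transcripts, which held 128 of the 128 TRAV and TRAJ genes used. Counting and joint placement were tested on simulated data. Members, lists and comparisons were chosen with earlier results of these data known. Named were all genes and copies, the 3 leading partner genes, clonotypes in at least 3 cells, and CDR3α in more than 1 library or with more than 1 β. No p-value was computed. Python 3.11.15 was used with scipy 1.17.1 (intervals), pandas 2.3.3, numpy 2.4.6 and, for plots, matplotlib 3.10.9. Alternatives were the TRA with the most UMIs, at least 2 UMIs, 1 TRA and 1 TRB, other clonotype definitions, merged copies, each uveitis dataset left out and, chosen after seeing the data, distinct α chains, the largest clonotype left out, and single-cell clonotypes that share a chain with an expanded one left out.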

Additional observations from a re-analysis of the deposited data

How the results depend on the processing

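Leaving out a dataset aside, of 129 values recomputed under the alternatives, 125 stayed within the 95% interval of the value reported. The 4 others were these. The TRAJ31 share of TRAV9 in uveitis dataset 2 was 68.2% by cells in place of 31.3% by clonotypes. By cells it stayed within the interval in dataset 1 (34.7%) and without uveitis (16.5%). The share of TRAV9-4 among TRAV9 clonotypes without uveitis was 44.4% with the N copy merged in place of 18.5%. With the largest TRAV9 clonotype left out, the share of TRAV9 cells in dataset 2 was 39.9% in place of 46.7%. The expanded share of TRAV9 cells without uveitis was then 29.9% in place of 44.7%. Leaving out the largest clonotype was chosen after seeing the data. Merging a copy can only raise a share, and leaving out the largest clonotype can only lower these shares, whereas counting by cells fixes no direction. Under each other contig filter and clonotype definition tried, the TRAV9 share was above the dataset without uveitis in both uveitis datasets. Leaving out single-cell clonotypes that share a chain with an expanded one gave 24.1%, 26.8% and 10.9% TRAV9 clonotypes and TRAJ31 in 23.5%, 23.7% and 11.5% of them; such clonotypes were 10 of 33 TRAV9 and 9 of 84 other single-cell clonotypes in dataset 2.

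With each uveitis dataset left out, the uveitis value ranged from 26.3 to 46.7% (TRAV9 cells), 24.4 to 29.8% (TRAV9 clonotypes), 27.5 to 31.3% (TRAJ31), 30.6 to 78.6% (expanded cells), 13 to 14 residues, 16.7 to 18.9% (TRBV3) and 4 to 5 UMIs. No paired analysis was possible because the pools held different mice, grouped by whether uveitis had developed, and no result comes from a test. Counts of a few clonotypes and low UMI counts per contig (a median of 3 for TRAV9-4 in both uveitis datasets) limit every single-gene statement, and the pools hide which mouse a cell came from.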

Other observations

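TRAV9 also occurred among TRA contigs that were not productive, which were not used above. Of non-productive TRA contigs with a V gene, 3 of 53 in uveitis dataset 1, 5 of 30 in dataset 2 and 6 of 95 without uveitis were named TRAV9, or 5.66% (1.18 to 15.7%), 16.7% (5.64 to 34.7%) and 6.32% (2.35 to 13.2%). The intervals of the 3 libraries overlapped.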
